A study of Mus musculus with 3 samples.

Results

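The genes described here are those of bone morphogenetic protein (BMP) signaling, namely the ligands Bmp2 and Bmp4, the secreted antagonists Grem1 and Nog, the inhibitory Smads Smad6 and Smad7, and the target genes Id1, Id2, Id3 and Id4. They were chosen by name, and 8 of the 10 were among the 15287 genes of the deposited table. Bmp2 and Nog were not listed and were not analysed here. RNA was sequenced from MC3T3-E1 cells, a wild-type preosteoblast line from mouse calvaria, with a single library for each of 3 conditions. The CTL library came from cells with no special treatment, Ti cells received 10 μg of titanium (Ti) particles on each square centimetre over 24 h, and Ti+Se-Met cells received the same particles for the same time together with 5 μM selenomethionine (Se-Met), an amino acid that carries selenium. The cultures are of a single cell line and contain none of the immune cells or osteoclasts of a bone surface.

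BMPs are secreted ligands of the TGF-beta superfamily that bind paired type I and type II receptors and lead to phosphorylation of Smad1, Smad5 and Smad9. Together with Smad4 these enter the nucleus and induce, in most cells, the Id genes and the inhibitory Smads. Id proteins have a helix-loop-helix domain but no basic region, so that they bind E proteins and keep them from DNA, while Smad6 and Smad7 feed back on the receptors. In osteoblasts BMP signaling is known for driving differentiation, and secreted antagonists such as gremlin 1 and noggin bind the ligands and keep them from their receptors.

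Levels were FPKM, a count of fragments scaled by transcript length and by the mapped total, which allows levels to be compared between genes. Where 3 levels are given in a row, their order is CTL, Ti and Ti+Se-Met. Differences between libraries were computed in log2(FPKM + 1), where the added 1 makes the difference of a low gene smaller, and a difference of at least 1 on that scale was counted as 2-fold. A single library stood for each condition, so that differences could not be checked against replicates, and p-values are not given. The steps of 1 fragment in low values of short genes placed the depth at about 14100000 (CTL), 14600000 (Ti) and 10500000 (Ti+Se-Met) fragments, and from these every fold of FPKM was given a 95% exact conditional binomial interval. The intervals cover counting error only, and compare libraries rather than conditions. Fewer cells that express a gene and less RNA of it per cell cannot be told apart in such libraries.

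Of the 11137 genes that reached 1 FPKM in any library, 404 were 2-fold higher and 405 were 2-fold lower in Ti than in CTL. The balance of the 2 directions depended on scaling, with 185 higher and 674 lower when the libraries were set to the same sum (TPM), 242 and 535 with upper-quartile scaling, and 249 and 462 when each gene was centred on genes of similar transcript length. TPM moved the median of all genes from 0.08 to -0.13. Of Ti+Se-Met and CTL, 294 genes were higher and 370 lower in the former, and TPM made these 174 and 613. The corresponding 18 and 7 genes of Ti+Se-Met and Ti became 20 and 4 after length centring. All 8 genes of the group passed the filter. Each direction given for them below against CTL was the same with TPM, upper-quartile and median-of-ratios scaling. Length centring changed the sign of Id1 between Ti+Se-Met and CTL. The osteoblast markers Col1a1, Col1a2, Sparc and Runx2 were well above 1 FPKM in every library, whereas Sp7 was at 0.37 to 0.63 FPKM and Alpl was at 1.51, 0.2 and 0.2. The summed level of 7 osteoblast markers was 4704 (CTL), 1834 (Ti) and 2273 (Ti+Se-Met) FPKM. Nearly all of it came from Col1a1 (1333, 354 and 482), Col1a2 (2688, 999 and 1257) and Sparc (649, 462 and 508). Runx2 was at 26.77, 17.14 and 22.97 FPKM, and Bglap2 at 3.76, 1.51 and 2.98. Macrophage markers summed to 0.08, 0.44 and 0.52 FPKM over the 2 listed of 4, with Ptprc and Adgre1 not listed. Endothelial markers summed to 0.13 to 0.24 FPKM (2 of 4 listed), adipocyte markers to 0.36 to 0.88 (3 of 4) and skeletal muscle markers to 0.32 to 1.21 (3 of 4). Of the 4 chondrocyte markers, Acan and Col9a1 were not listed and Col2a1 stayed below 1 FPKM, while Sox9 was at 24.94, 36.25 and 39.29 FPKM. The part of these marker differences in the results below was not tested.

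In untreated cells the group was dominated by Id4. In the CTL library Id4 stood at 179.97 FPKM, above 97.0% of the genes that passed the filter, and Grem1 followed at 40.97 FPKM. Bmp4, Id3 and Id2 lay at 9.9, 9.34 and 7.62 FPKM, and the counting intervals of neighbours in this order overlapped. Smad6 was at 4.83 FPKM, and Id1 and Smad7 were at 2.6 and 2.2 FPKM with overlapping intervals. In the Ti and the Ti+Se-Met libraries the order opened with Grem1, ahead of Id4, followed by Id3 in both. In Ti the intervals of every pair of neighbours from Id3 down to Smad6 overlapped, and in Ti+Se-Met those from Bmp4 down did.

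**Figure D1:**
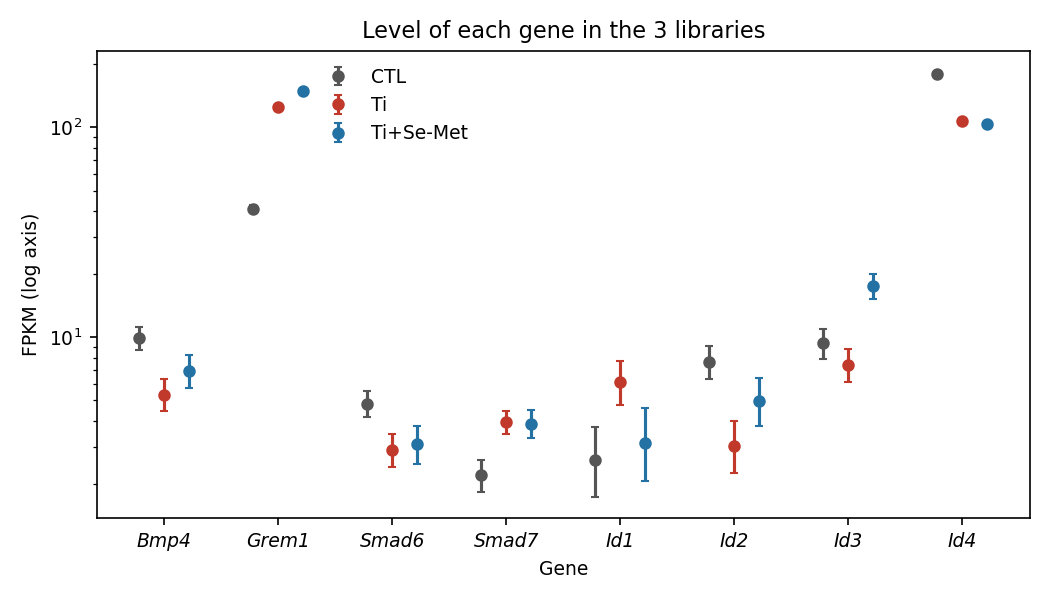
Level of the 8 listed genes in FPKM on a log axis, with 1 point per library (CTL grey, Ti red, Ti+Se-Met blue). Bars are 95% exact Poisson intervals on the estimated fragments and cover counting error only. Grem1 was at 124.95 and 148.88 FPKM in the 2 libraries with particles against 40.97 in CTL, and Id3 was highest in Ti+Se-Met at 17.47 FPKM.

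Compared with CTL, the Ti library held more RNA of the antagonist Grem1 and less of Bmp4, Smad6, Id2 and Id4. Grem1 was 2-fold higher, as were 3.63% of all genes, and Id2 was 2-fold lower, as were 3.64%. The 2 of 8 compare with 7.26% of all genes in either direction. Id1 lay just short of 2-fold on the log2 scale at 0.98, and Smad7 was higher by 0.63. The median difference of the 8 genes was -0.44, against 0.08 over all 11137 genes. Adding Se-Met to the particles brought 1 of the 8 genes past 2-fold against Ti, namely Id3, where 0.224% of all genes were past 2-fold (0.162% higher and 0.0629% lower). The 8 genes had a median difference of 0.16 in that comparison, and all genes one of -0.06. Grem1 alone of the 8 was past 2-fold between Ti+Se-Met and CTL, a distance reached by 5.96% of all genes (2.64% higher and 3.32% lower). The comparisons share libraries, and their values are therefore set side by side without a measure of agreement.

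**Figure D2:**
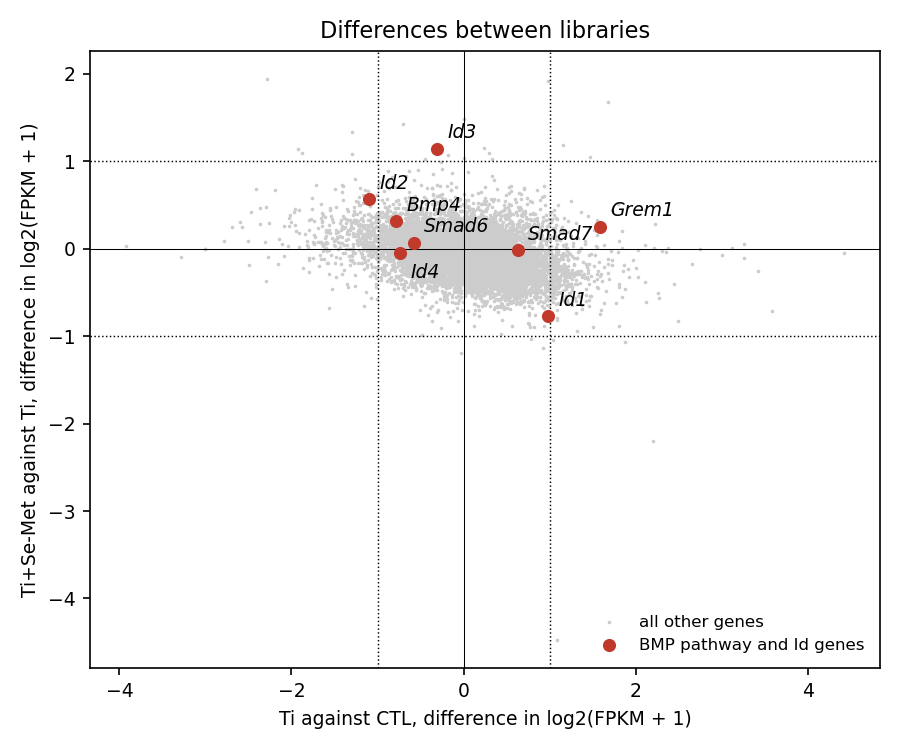
Difference in log2(FPKM + 1) of Ti over CTL (horizontal axis) and of Ti+Se-Met over Ti (vertical axis) for the 11137 genes, with the 8 listed genes in red and dotted lines at 2-fold. The Ti library enters both axes with opposite sign, which by itself tilts the cloud. Grem1 lies to the right at 1.59, Id2 to the left at -1.10, and Id3 at the top at 1.14.

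The sequences upstream of the transcription start are shown for Grem1 and Id4, the most abundant genes of the group, which led the order of levels in every library. The RefSeq promoter table held 6 of the 10 genes (Bmp4, Grem1, Smad6, Id2, Id3 and Id4), each with the 250 bases before its RefSeq start on build GRCm38.p6. In the GENCODE M21 annotation, the 162 bases next to the start of Id2 and all 250 of Id3 lie in a longer transcript of the same gene, and these windows are not printed. The bases checked shortly after the RefSeq start of Id4 were not found in a GENCODE M21 transcript of it, unlike those of the other genes with a window. The sequences below run 5′ to 3′ in lower case, with matches to a searched motif in capitals. The windows are chr2:113758649-113758898 on the minus strand for Grem1 and chr13:48260866-48261115 on the plus strand for Id4.
Grem1: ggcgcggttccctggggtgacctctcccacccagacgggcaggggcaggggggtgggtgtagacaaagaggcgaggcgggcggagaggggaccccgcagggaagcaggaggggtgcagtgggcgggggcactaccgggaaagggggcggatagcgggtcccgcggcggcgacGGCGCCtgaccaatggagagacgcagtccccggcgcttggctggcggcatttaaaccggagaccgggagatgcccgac
Id4: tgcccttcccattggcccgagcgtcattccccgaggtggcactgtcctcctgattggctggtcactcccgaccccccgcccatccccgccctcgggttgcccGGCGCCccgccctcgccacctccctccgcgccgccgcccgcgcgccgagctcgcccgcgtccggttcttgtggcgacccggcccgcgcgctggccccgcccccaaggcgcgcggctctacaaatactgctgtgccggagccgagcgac

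The motifs searched on both strands were GGCGCC, a GC-rich sequence that Smad1 and Smad5 bind, the same sequence followed after 5 further bases by GTCT, the cAMP response element TGACGTCA, and TATAAA. The second contains the first. GGCGCC was found once each in the windows of Grem1 (78 to 73 bases before the RefSeq start), Id2 (231 to 226) and Id4 (148 to 143), and 9.59% of 32851 promoter windows of the same length held it. These windows are rich in G and C (72.0%, 62.8% and 75.6%, against a median of 52.4%). In Id3, whose window was 62.8% G and C, none of the 4 motifs was matched, and Bmp4 and Smad6 had no match either. The other motifs occurred in 0.0700%, 1.55% and 12.4% of all windows and in none of the 6. A match is a description of the letters and not a binding site.

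Bmp4 (gene ID 12159), the only BMP ligand of the group that was listed, encodes a potent inducer of bone formation. It was at 9.9 (CTL), 5.33 (Ti) and 6.89 (Ti+Se-Met) FPKM. The CTL level was thus the highest and the Ti level the lowest, with Ti+Se-Met in between. The fold in Ti over CTL was 0.538 (interval 0.431 to 0.668), and with Se-Met added it was 1.29 relative to Ti (interval 1.01 to 1.67). The lower bound of the latter is close to equal levels. On the log2 scale the differences were -0.78 and 0.32, and centring on genes of similar transcript length took the first past 2-fold, to -1.02. Reads of Bmp4 could be split with its pseudogene Bmp4-ps and with a pair of overlapping noncoding genes, none of which was listed.

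The other BMP and growth differentiation ligands gave little signal. Of 12 named, 9 were listed and 8 of these stayed below 1 FPKM in every library. The exception was Gdf6, a ligand known from joint and skeletal patterning, at 1.23 (CTL), 0.4 (Ti) and 0.08 (Ti+Se-Met) FPKM, on an estimated 59, 20 and 3 fragments. It was 2-fold lower in Ti+Se-Met than in CTL on the log2 scale (-1.05). Its folds of FPKM were 0.325 in Ti over CTL (interval 0.187 to 0.552) and 0.20 in Ti+Se-Met over Ti (interval 0.04 to 0.703). Bmp4 made up 85.9% of the summed FPKM of the 10 listed ligands in CTL, and its share was 91.0% (Ti) and 97.5% (Ti+Se-Met).

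Grem1 (gene ID 23892) encodes gremlin 1, a secreted protein of the DAN family that binds BMP2 and BMP4 and keeps them from their receptors. Its level was 40.97 (CTL), 124.95 (Ti) and 148.88 (Ti+Se-Met) FPKM. Both libraries with particles were far above CTL, and Ti+Se-Met was above Ti. The fold in Ti over CTL was 3.05 (interval 2.91 to 3.20), and its log2 difference of 1.59 ranked 62nd from the top among the 11137 genes. The fold of Ti+Se-Met over Ti was 1.19 (interval 1.15 to 1.23), and that against CTL was 3.63 (interval 3.46 to 3.81). Between 1.36 with TPM and 1.66 with length centring, the log2 difference of Ti over CTL stayed past 2-fold under each alternative, the 4-fold threshold apart.

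Since Grem1 was higher and Bmp4 lower in Ti, the ratio of Grem1 to Bmp4 within a library was computed, which does not depend on scaling between libraries. Per FPKM of Bmp4 there were 4.14 of Grem1 (CTL), 23.4 (Ti) and 21.6 (Ti+Se-Met). The ratio was 5.66-fold higher in Ti than in CTL (exact conditional interval 4.54 to 7.10). Between Ti+Se-Met and Ti it differed by a factor of 0.922 (interval 0.712 to 1.19), which includes an equal ratio. The pair was chosen by these same values, so the interval for Ti over CTL was bound to leave out an equal ratio. The ratio restates the folds of both genes and is no further support. It does not stand for all antagonists and ligands. The 13 antagonists summed to 539 (CTL) and 421 (Ti) FPKM, and the 10 listed ligands to 11.52 and 5.86.

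Most other antagonists and modulators of BMP ligands were lower in Ti than in CTL. Above CTL were Fstl3 (fold 1.42, interval 1.02 to 1.98) and Dand5 (fold 1.13, interval 0.812 to 1.57), and the interval of Dand5 includes equal levels. Of 15 named, 12 were listed and passed the filter, of which 0 were 2-fold higher and 2 were 2-fold lower in Ti than in CTL, and the median difference was -0.60, against 0.08 over all genes. Below CTL were 10 of the 12, and 11 with TPM or length centring, and the number 2-fold lower was 5 with TPM. Of all 11137 genes, 4961 were below CTL, 3.64% were 2-fold lower, and with TPM 6649 were below it and 674 were 2-fold lower. Chrdl1, or chordin-like 1, was at 107.11 FPKM in CTL against 44.99 (Ti) and 56.37 (Ti+Se-Met). Chrd itself, the gene of chordin, was at 6.79, 2.01 and 2.01 FPKM. Bmper, which encodes a modulator that binds BMPs, was at 19.51, 10.18 and 8.22 FPKM and was 2-fold lower only in Ti+Se-Met over CTL (-1.15). The most abundant in CTL was Fstl1, follistatin-like 1, at 191.35, 106.46 and 124.47 FPKM. In CTL Grem1 ranked 5th among the 13 antagonists, and both libraries with particles had it at the top. Its share of their summed FPKM was 7.60% (CTL), 29.6% (Ti) and 30.7% (Ti+Se-Met). The sum itself was 539 (CTL), 421 (Ti) and 484 (Ti+Se-Met) FPKM.

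**Figure D3:**
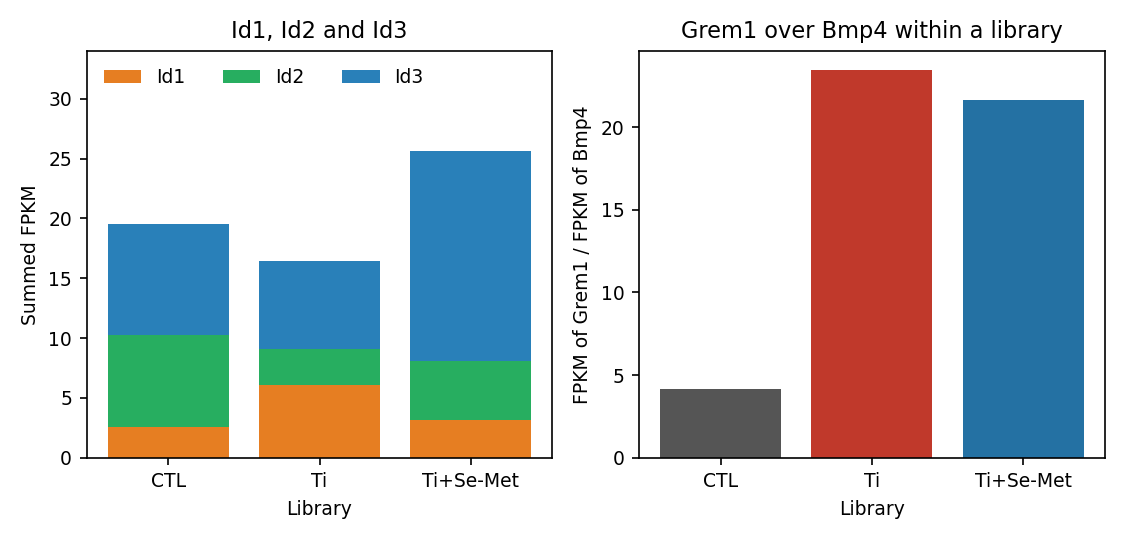
Left, stacked bars of the FPKM of Id1, Id2 and Id3 in each library, with Id3 making up 68.3% of the Ti+Se-Met bar. Right, FPKM of Grem1 divided by FPKM of Bmp4 in the same library, at 4.14 (CTL), 23.4 (Ti) and 21.6 (Ti+Se-Met). There was 1 library per bar, so no error over replicates is drawn.

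Receptors were present at moderate levels. Of 13 names for receptors and co-receptors, 10 were listed and 6 passed the filter, and 0 were past 2-fold in either direction in any of the 3 comparisons, where 7.26%, 0.224% and 5.96% of all genes were. In Ti, 5 of the 6 were below CTL with a median difference of -0.35, while 55.3% of all genes were above it. With TPM and with upper-quartile scaling 5 of the 6 were again below. Of all 11137 genes, 6649 and 5958 were then below CTL. Bmpr1a, a type I receptor and the most abundant of them in CTL, was at 44.94 (CTL), 26.39 (Ti) and 28.19 (Ti+Se-Met) FPKM (fold in Ti over CTL 0.587, interval 0.557 to 0.619). Acvr1, another type I receptor, was lowest in CTL, at 36.24, 48.08 and 55.36 FPKM. The 9 signal-carrying Smads and their regulators all passed, with a median difference of 0.12 in Ti over CTL that turned to -0.10 with TPM and -0.01 with upper-quartile scaling. Skil, which encodes the corepressor SnoN, was the only one past 2-fold, at 3.73, 8.87 and 8.22 FPKM, and it was below 2-fold with TPM and upper-quartile scaling. The most abundant in CTL was Smurf2, a ubiquitin ligase of the pathway, at 41.71, 27.27 and 29.78 FPKM. Of the Smads that BMP receptors phosphorylate, Smad1 was at 3.63, 4.52 and 4.7 FPKM and Smad5 at 11.77, 11.14 and 10.75. Smad9, the lowest of them, was at 1.05, 1.66 and 1 FPKM, with folds of 1.58 in Ti over CTL (interval 1.18 to 2.13) and 0.602 in Ti+Se-Met over Ti (interval 0.434 to 0.84). Smad4, the shared partner, was at 17.07, 18.57 and 17.66 FPKM.

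The inhibitory Smads differed in direction between the particle-treated libraries and CTL. Smad6 (gene ID 17130), which acts mainly on BMP receptors, was at 4.83 (CTL), 2.9 (Ti) and 3.09 (Ti+Se-Met) FPKM. Smad7 (gene ID 17131), which acts on TGF-beta and BMP receptors alike, was at 2.2, 3.94 and 3.88 FPKM. Smad6 was thus higher in CTL than in both libraries with particles, and Smad7 was lower. The fold in Ti over CTL was 0.60 for Smad6 (interval 0.472 to 0.756) and 1.79 for Smad7 (interval 1.44 to 2.23). Neither reached 2-fold on the log2 scale. Within a library, Smad7 stood at 0.455 of the level of Smad6 (CTL), 1.36 (Ti) and 1.26 (Ti+Se-Met), and the ratio was 2.98-fold higher in Ti than in CTL (interval 2.16 to 4.14). This ratio restates the folds of both genes and is no further support. The folds with Se-Met relative to Ti were 1.07 for Smad6 (interval 0.81 to 1.42) and 0.985 for Smad7 (interval 0.804 to 1.21), so a difference was not detectable at this depth. The direction for Smad7 in that comparison changed sign under all 3 scalings. Smad7 overlaps a noncoding gene, Gm41776, that was not listed.

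The Id genes did not share a pattern. Id4 (gene ID 15904) was at 179.97 (CTL), 107.58 (Ti) and 103.93 (Ti+Se-Met) FPKM, so that CTL stood above both libraries with particles, which were close to each other. Its fold was 0.598 in Ti over CTL (interval 0.578 to 0.618) and 0.966 in Ti+Se-Met over Ti (interval 0.928 to 1.01). The sign of the latter changed with upper-quartile scaling and with median-of-ratios scaling. In Ti over CTL the log2 difference was -0.74, and it became -0.97 with TPM and -0.87 with upper-quartile scaling. Those shifts are larger than the counting interval. Id4 made up 90.2% of the summed FPKM of the 4 Id genes in CTL, and its share was 86.7% (Ti) and 80.2% (Ti+Se-Met). The sum was 199.53 (CTL), 124.06 (Ti) and 129.52 (Ti+Se-Met) FPKM. An overlapping noncoding gene on the locus, A330033J07Rik, was not listed, and strand was not stated for the counting.

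Id2 (gene ID 15902) was at 7.62 (CTL), 3.03 (Ti) and 4.97 (Ti+Se-Met) FPKM. The Ti library was the lowest, and Ti+Se-Met lay between it and CTL. The fold in Ti over CTL was 0.398 (interval 0.283 to 0.564), on an estimated 120 and 50 fragments. With Se-Met the fold relative to Ti was 1.64 (interval 1.09 to 2.40), with a log2 difference of 0.57 that 99.0% of all genes did not exceed. Against CTL, Ti+Se-Met was still lower by a fold of 0.652 (interval 0.466 to 0.895).

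Id3 (gene ID 15903) was at 9.34 (CTL), 7.36 (Ti) and 17.47 (Ti+Se-Met) FPKM. Here Ti+Se-Met stood above both other libraries, on an estimated 207 fragments. The fold in Ti+Se-Met over Ti was 2.37 (interval 1.89 to 3.0), and its log2 difference of 1.14 ranked 10th from the top among the 11137 genes. It ran from 1.17 to 1.26 under the other scalings and length centring, and was under 2-fold with a pseudocount of 5. Relative to CTL the fold of Ti+Se-Met was 1.87 (interval 1.5 to 2.32). Ti itself stood at 0.788 of CTL, and the interval of 0.612 to 1.00 reached equal levels.

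Id1 (gene ID 15901), in many cells the most direct readout of BMP signaling, was highest in Ti, where Id2 and Id3 were lowest. It was at 2.6 (CTL), 6.09 (Ti) and 3.15 (Ti+Se-Met) FPKM, with CTL and Ti+Se-Met near each other. The estimated fragments were 29, 70 and 26, the fewest of the group in CTL and in Ti+Se-Met. The fold in Ti over CTL was 2.34 (interval 1.49 to 3.73). With Se-Met it was 0.517 relative to Ti (interval 0.316 to 0.821), and its log2 difference of -0.77 ranked 28th from the bottom. Ti+Se-Met stood at 1.21 of CTL (interval 0.681 to 2.12), and a difference was not detectable at this depth.

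Transcript length moved with the Ti over CTL differences. The 680 genes of a transcript length below 1000 bases, among them Id1 with 934, had a median log2 difference of 0.44, and the 1171 genes of 6000 bases or more had one of -0.21. For Ti+Se-Met and Ti the same medians were -0.12 and 0. After centring on genes of similar length, the log2 differences of Id1 were 0.53 in Ti over CTL and -0.65 in Ti+Se-Met over Ti. The value of Id1 between Ti+Se-Met and CTL changed sign, from 0.21 to -0.10. Id2 and Id3, with 1270 and 1278 bases, fell in a class with a median of 0.34 in Ti over CTL, and their centred values there were -1.44 and -0.65. Grem1 is a long transcript (4148 bases) in a class with a median of -0.08. The part of length in these differences was not tested beyond the centring.

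Id1 and Id3 were also compared within each library, where their ratio restates the folds of both genes and is no further support. Per FPKM of Id1 there were 3.59 of Id3 (CTL), 1.21 (Ti) and 5.55 (Ti+Se-Met). The ratio in Ti+Se-Met was 4.59-fold that in Ti (exact conditional interval 2.72 to 7.93), and the ratio in Ti was 0.336 of that in CTL (interval 0.198 to 0.566). Ti+Se-Met and CTL could not be separated, with a factor of 1.54 (interval 0.842 to 2.86). Among Id1, Id2 and Id3 together, which summed to 19.56 (CTL), 16.48 (Ti) and 25.59 (Ti+Se-Met) FPKM, Id1 held 13.3% (CTL), 37.0% (Ti) and 12.3% (Ti+Se-Met). Id3 held 47.8%, 44.7% and 68.3% of the same sums.

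The genes whose pair of differences lay nearest to that of Id1 among the 8724 genes whose FPKM averaged 5 or more were Psmg3, Rangrf, Ccdc137, Chchd1 and Uqcr10, at Euclidean distances of 0.0096 to 0.12 over the 3 libraries. Nearest to Id3 were Cklf, Dbp, LOC118567384, Olfm1 and Dlg4, at distances of 0.147 to 0.418. Cklf, a chemokine-like factor, was at 3.92, 3.34 and 8.1 FPKM, and Dbp, a clock-controlled transcription factor, at 10.55, 8 and 15.25.

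Other genes that BMP signaling can induce in osteoblasts were looked at for comparison. Of 9 named, 8 were listed and 5 passed the filter (Atoh8, Dlx2, Dlx5, Msx1 and Runx2), and 0 were past 2-fold in any comparison. In Ti over CTL 4 of the 5 were lower, with a median of -0.37, and 4961 of all 11137 genes were lower (6649 with TPM). All 5 were higher in Ti+Se-Met than in Ti under each scaling, with differences from 0.14 to 0.52 and a median of 0.23. Of all genes 38.5% were higher there, with a median of -0.06. This background depended on scaling, with 5525 of the 11137 genes higher under median-of-ratios and 5583 under upper-quartile scaling, and medians near 0. Runx2, the master transcription factor of osteoblasts and the most abundant of the list in CTL, was at 26.77, 17.14 and 22.97 FPKM (fold in Ti+Se-Met over Ti 1.34, interval 1.24 to 1.44).

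The basic helix-loop-helix partners of Id proteins were more abundant than Id1, Id2 and Id3 in most cases. All 6 passed the filter, and 3 were above and 3 below CTL in Ti, where 55.3% of all genes were above it. With TPM 2 were above and 4 below, and 4486 of all 11137 genes were above. Tcf3, which encodes the E proteins E12 and E47, was the most abundant in CTL, at 60.13, 70.5 and 63.86 FPKM. Hes1, a repressor best known as a Notch target, was the only one past 2-fold, at 2.35 (CTL), 8.07 (Ti) and 6.84 (Ti+Se-Met) FPKM (fold in Ti over CTL 3.43, interval 2.42 to 4.87). It was 2-fold higher than CTL in both libraries with particles, as were 3.63% (Ti) and 2.64% (Ti+Se-Met) of all genes.

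**Figure D4:**
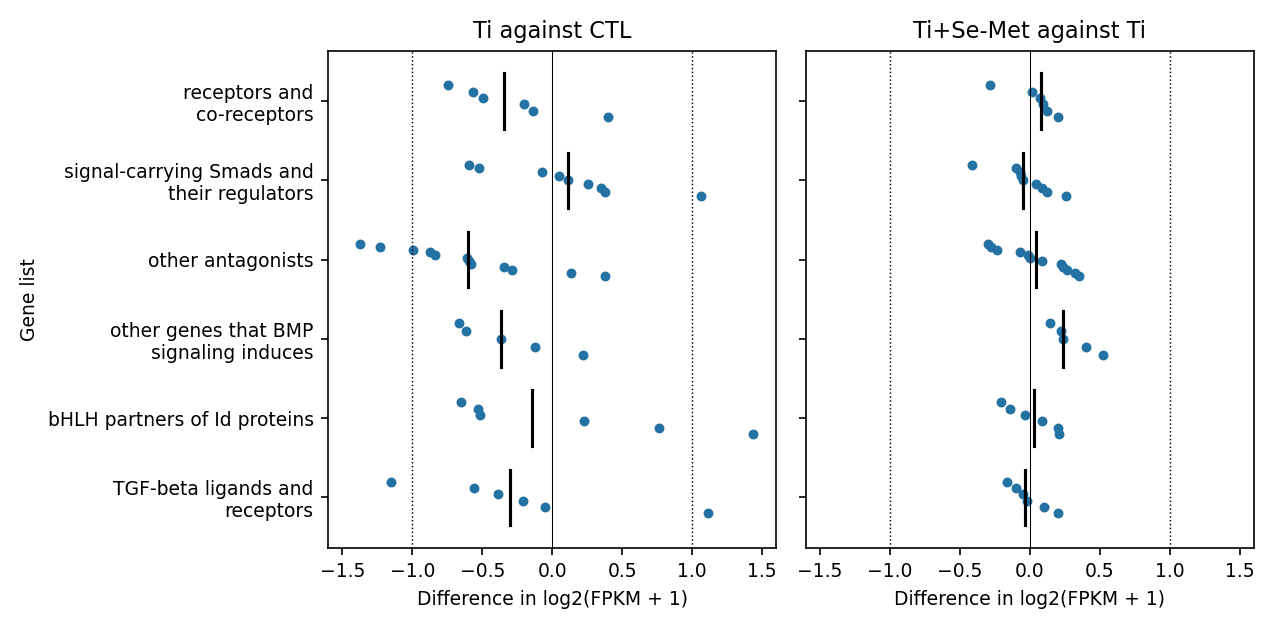
Difference in log2(FPKM + 1) of each gene that passed the filter, by gene list, for Ti over CTL (left) and Ti+Se-Met over Ti (right). Points are genes, thick lines are list medians and dotted lines mark 2-fold. The antagonists have a median of -0.60 on the left, and the receptors one of -0.35.

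The TGF-beta branch, which shares Smad4 and Smad7 with BMP signaling, was examined last. Of its 6 ligands and receptors, Tgfb1 was 2-fold higher and Tgfb2 2-fold lower in Ti than in CTL, as were 3.63% and 3.64% of all genes. Below CTL were 5 of the 6, with a median difference of -0.30, and 4961 of all 11137 genes. Tgfb1 was at 10.98 (CTL), 24.96 (Ti) and 28.87 (Ti+Se-Met) FPKM, and Tgfb2 at 10.75, 4.28 and 3.93. Tgfb1 was below 2-fold in Ti with TPM, upper-quartile scaling and length centring. The ratio of Tgfb1 to Tgfb2 was 1.02 (CTL), 5.83 (Ti) and 7.35 (Ti+Se-Met). Tgfbr2, the type II receptor and the most abundant of the list, was at 82.56, 55.79 and 53.81 FPKM. Of the genes that TGF-beta signaling can induce, Tgif1, a corepressor of Smads, was at 31.41, 71.03 and 73.47 FPKM, and was 2-fold higher in Ti than in CTL, though not with TPM. Ccn2, which encodes a matricellular growth factor, was at 0.83, 1.9 and 3.31 FPKM, and Tgfbi, which encodes a matrix protein, at 10.24, 15.24 and 24.35. Ccn2 rested on an estimated 26, 62 and 78 fragments. Both genes were 2-fold higher in Ti+Se-Met than in CTL, by 1.24 and 1.17 on the log2 scale, as were 2.64% of all genes. Tgfbi was just below 2-fold with TPM. In Ccn2 and Tgfbi the level was also higher in Ti+Se-Met than in Ti, with folds of 1.74 (interval 1.24 to 2.48) and 1.6 (interval 1.43 to 1.79). Pmepa1, from the same list, was instead lower in Ti+Se-Met than in Ti, with a fold of 0.88 (interval 0.80 to 0.966).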

How the data were processed

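According to the methods of the study, adapter and low-quality reads were discarded, and the remainder was aligned with HISAT2 and assigned to genes with HTSeq. The submitters' processing notes also name StringTie and the build mm9. The deposited table holds FPKM with 2 decimals for every gene, and how the authors derived them from the counts is not given in the sources used here. Each of the 3 columns was matched to its library by name, and 0 were left unmatched.

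Differences in log2(FPKM + 1) and intervals came from scripts in Python 3.11.15 (scipy 1.17.1, pandas 2.3.3, numpy 2.4.6). Models for counts were not applied to FPKM. Depth was estimated from 633 genes with 1 transcript, with lengths of GENCODE M21 less 150 bases. Of the low values used, 35.4% to 49.3% lay on a step of whole fragments, against 6.46% to 9.11% by chance, so fragments and intervals are approximate. A gene's length was the median over its matched transcripts (found for 98.0% of genes that passed the filter).

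The genes and lists were chosen with earlier results of these data known. From each list, the genes past 2-fold in any comparison and the most abundant one in CTL are named, and the 5 genes nearest to Id1 and to Id3. The list of genes that TGF-beta signaling induces is not reported here as a whole. Acvr1, Smad1, Smad4, Smad5, Smad9, Fstl3, Dand5 and Pmepa1 were named after their values were seen. As alternatives, the pseudocount was set to 0.1 or 5, the filter was dropped or replaced by a mean of 5 FPKM, the threshold was set to 1.5-fold or 4-fold, 3 scalings were applied, and differences were centred on transcript length, which was added after seeing the data.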

Additional observations from a re-analysis of the deposited data

How the results depend on the processing

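No paired analysis was possible because the conditions had a single library each, and leaving libraries out was not possible either. Among the 8 genes, the 2 past 2-fold between Ti and CTL became 1 with a pseudocount of 5 (Grem1), and with thresholds of 1.5-fold and 4-fold they were 6 and 0. The 1 between Ti+Se-Met and Ti (Id3) became 0 with that pseudocount, and 2 and 0 with those thresholds. The 1 between Ti+Se-Met and CTL (Grem1) became 4 and 0 with the thresholds. Over all genes, the 809 past 2-fold between Ti and CTL were 1251 with a pseudocount of 0.1, 333 with one of 5, 2989 at 1.5-fold and 57 at 4-fold. Between Ti+Se-Met and CTL the 664 were 1110, 243, 2469 and 49 in the same order. Between Ti+Se-Met and Ti the 25 were 90, 4, 238 and 2, and they were 12 where the mean had to reach 5 FPKM. Fewer genes are left by construction where the pseudocount, the threshold or the filter is higher. Of 144 values of single genes under the alternatives, 137 kept their sign, and the 7 changes were in Smad7 and Id4 between Ti+Se-Met and Ti and in Id1 between Ti+Se-Met and CTL. By size, 15 of the 144 moved further than the counting interval extends to each side on the log2 scale. These were values of Grem1 and Id4, whose counting intervals are the narrowest of the group. A pseudocount of 0.1 took Id1 past 2-fold between Ti and CTL. The single library per condition leaves the spread between cultures unknown, and the intervals cover counting error only.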
